A study of Mus musculus with 4 samples.

Results

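The genes described here encode the proteins that carry out or steer the splicing of messenger RNA in primary fibroblasts cultured from mouse embryos (MEFs), which stop dividing after a number of passages. Members were chosen by gene symbol: the SR proteins (Srsf genes with Tra2a, Tra2b, Srrm1 and Srrm2), the hnRNPs (Hnrnp genes with Ptbp1 and Ptbp2), the U2 factors (Sf3a, Sf3b and U2af genes), the Snrp genes of the small nuclear ribonucleoproteins (snRNPs), and the Prpf genes. Snrpn was left out. The array named 68 such genes through 182 probes, out of 17466 genes named in all. No measured value decided which genes entered. The family itself was proposed with the passage 7 to passage 2 changes of these arrays known, so the counts below describe the members and support nothing about the family as a whole. The RefSeq reference used here held 76 such genes. Those not matched to a probe include Hnrnpk, Hnrnpa0, Snrpf and Srsf11, and no unmatched gene was analysed here.

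Splicing removes introns from newly made RNA and is carried out by the spliceosome, which is assembled anew on each intron from snRNPs. The U2 snRNP recognises the branch site with the help of SF3A and SF3B, while U2AF binds the 3′ end of the intron. SR proteins bind exons and mostly promote the use of nearby splice sites. Many hnRNPs bind introns or exons and often repress nearby splice sites, and they also package, export and stabilise RNA. Several SR proteins and hnRNPs limit their own level by splicing in an exon that sends their RNA to decay.

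Cells at passage 7, described in the labels as entering replicative senescence, a permanent stop in division reached after many passages, were compared with growing cells at passage 2. RNA of each passage was hybridised to 2 one-colour Agilent arrays, and 1 slide carried all 4. The labels name 3 independent cultures whose RNA was pooled before the arrays, so the 2 arrays of a passage may be technical repeats and the p-values then measure only the spread between arrays. No genetic change or drug is given for either passage. Strain and embryo age are not given in the sources used here. Position on the slide and passage cannot be told apart.

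Levels are log2 processed signals relative to the array's 75th percentile, so a level of 1 means a signal 2-fold above it, and levels of different probes are not comparable. The 75th percentile itself was 964 and 402 at passage 7, against 1024 and 1404 at passage 2, and 70.6% and 65.8% of spots against 71.9% and 72.7% were well above background. Every one of the 68 genes was well above background on all 4 arrays. The 9 fibroblast markers measured were so as well, with a summed signal of 775 and 1130 times the 75th percentile at passage 7, against 608 and 495 at passage 2. Pdgfra of that list fell (-2.54). Such sums follow the brightest probes of a list, and single markers moved apart in several lists. Macrophage markers summed to 1.14 and 1.42, against 2.64 and 2.39, and Csf1r (-1.26) and Adgre1 (-2.15) fell. Trophoblast markers summed to 1.46 and 1.54, against 0.444 and 0.32. Of these, 4 of 6 tested rose at least 2-fold, beside 9.99% of all genes tested. Keratinocyte markers summed to 4.38 and 3.82, against 1.72 and 1.04, where Ivl rose (5.94) and Krt14 fell (-2.33). Muscle markers summed to 21.5 and 23.4, against 12.0 and 8.48, where Acta1 rose (1.25), Des fell (-2.65) and 5 of 7 had negative changes. Neural markers summed to 13.7 and 14.5, against 9.66 and 10.3, with Map2 (1.25) and Nes (0.89) higher and Sox2 (-0.88) lower. Endothelial markers summed to 0.748 and 0.726, against 0.504 and 0.491, with Emcn (2.06) higher and Cdh5 (-0.71) lower. Ptprc of the macrophage list, Krt1 of the keratinocyte list and Gcm1 of the trophoblast list were not well above background on any array. In these lists 4 of 6, 6 of 7 and 5 of 7 genes were well above background on all 4 arrays. Of 13 proliferation markers, 11 fell at least 2-fold, beside 9.42% of all genes tested, led by the cyclins Ccna2 (-3.46) and Ccnb1 (-3.25). What these shifts contribute to the members' changes was not tested, and fewer cells of a type cannot be told apart from less RNA per cell.

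The regions just upstream of 4 members are shown because these genes carry the results that follow: Srsf7 and Srsf3 were lower at passage 7 at all 3 of their probes, Hnrnpd at all 5, and Hnrnpl was the one member that rose. Each run holds 250 bases before and 50 after the gene start, from RefSeq on GRCm38.p6, read 5′ to 3′ on the gene's strand. Capitals mark matches to the motifs described further on.

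Srsf7 (chr17:80207256-80207555, minus strand): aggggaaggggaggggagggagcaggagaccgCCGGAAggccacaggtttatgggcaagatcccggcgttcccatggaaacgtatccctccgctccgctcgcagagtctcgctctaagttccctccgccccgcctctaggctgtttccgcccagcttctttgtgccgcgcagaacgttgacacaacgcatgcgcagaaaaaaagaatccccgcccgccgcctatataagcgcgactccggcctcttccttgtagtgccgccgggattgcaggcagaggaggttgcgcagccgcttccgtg

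Srsf3 (chr17:29032410-29032709, plus strand): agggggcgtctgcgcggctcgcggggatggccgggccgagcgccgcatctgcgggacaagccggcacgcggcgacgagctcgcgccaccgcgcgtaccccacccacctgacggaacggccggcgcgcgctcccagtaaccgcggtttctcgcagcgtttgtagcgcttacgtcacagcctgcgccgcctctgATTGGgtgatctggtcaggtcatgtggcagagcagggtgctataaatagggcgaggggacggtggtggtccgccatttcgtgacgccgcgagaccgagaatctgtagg

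Hnrnpd (chr5:99978889-99979188, minus strand): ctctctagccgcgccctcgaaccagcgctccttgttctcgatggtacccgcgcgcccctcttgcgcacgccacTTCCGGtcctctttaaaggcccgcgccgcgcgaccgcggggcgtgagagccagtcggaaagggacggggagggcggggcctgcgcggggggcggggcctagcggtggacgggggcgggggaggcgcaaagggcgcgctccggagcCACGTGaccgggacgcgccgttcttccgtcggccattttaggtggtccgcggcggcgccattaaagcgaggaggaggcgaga

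Hnrnpl (chr7:28810640-28810939, plus strand): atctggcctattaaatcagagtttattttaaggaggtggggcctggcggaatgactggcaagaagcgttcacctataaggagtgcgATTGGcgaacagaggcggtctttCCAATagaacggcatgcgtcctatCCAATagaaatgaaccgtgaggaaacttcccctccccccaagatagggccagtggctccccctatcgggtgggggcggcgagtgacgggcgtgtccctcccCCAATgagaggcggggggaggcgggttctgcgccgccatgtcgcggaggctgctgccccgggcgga

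Of the 68 members, 12 fell and 1 rose by the rule used here for those words, an adjusted p under 0.05 with a change of 2-fold or more. Among all 13850 genes tested, 9.42% fell and 9.99% rose by that rule. By adjusted p alone, 18 members were lower and 1 was higher at passage 7, with 11.9% of all genes lower and 13.4% higher. The median change of the members was -0.29 on the log2 scale, or -0.49 relative to the median change of all genes, which was 0.20. Changes of single genes include that 0.20, and all are passage 7 minus passage 2. In 37 members both passage 7 arrays lay below both passage 2 arrays, an arrangement found in 27.8% of all genes. In 8 members both lay above, as in 40.7% of all genes. For genes picked by the rules above, such separation largely follows from the rule and is not further evidence. Of all genes that changed 2-fold, 1384 rose and 1305 fell, against 1237 and 1767 with median scaling and 732 and 1340 in the authors' deposited value table.

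The calls of single genes rest on few arrays. Srsf7 was the one member that passed with any of the 4 arrays left out. It stood alone without the passage 7 replicate 1 array. Without the passage 7 replicate 2 array it passed with Hnrnpd. Without the passage 2 replicate 2 array 4 members passed as lower (Srsf7, Srsf3, Hnrnpr and Hnrnpll) and 2 as higher. Without the passage 2 replicate 1 array 12 members passed as lower and 2 as higher. All 18 lower genes and Hnrnpl kept their direction in these 4 fits. In each of them the passages did not overlap, so leaving out 1 array could not reverse the sign. The kept direction is therefore not further evidence. With no filter on dim probes, 6 of the 12 genes kept the 2-fold call (Srsf7, Srsf3, Srsf1, Tra2b, Hnrnpr and Hnrnpll).

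**Figure D1:**
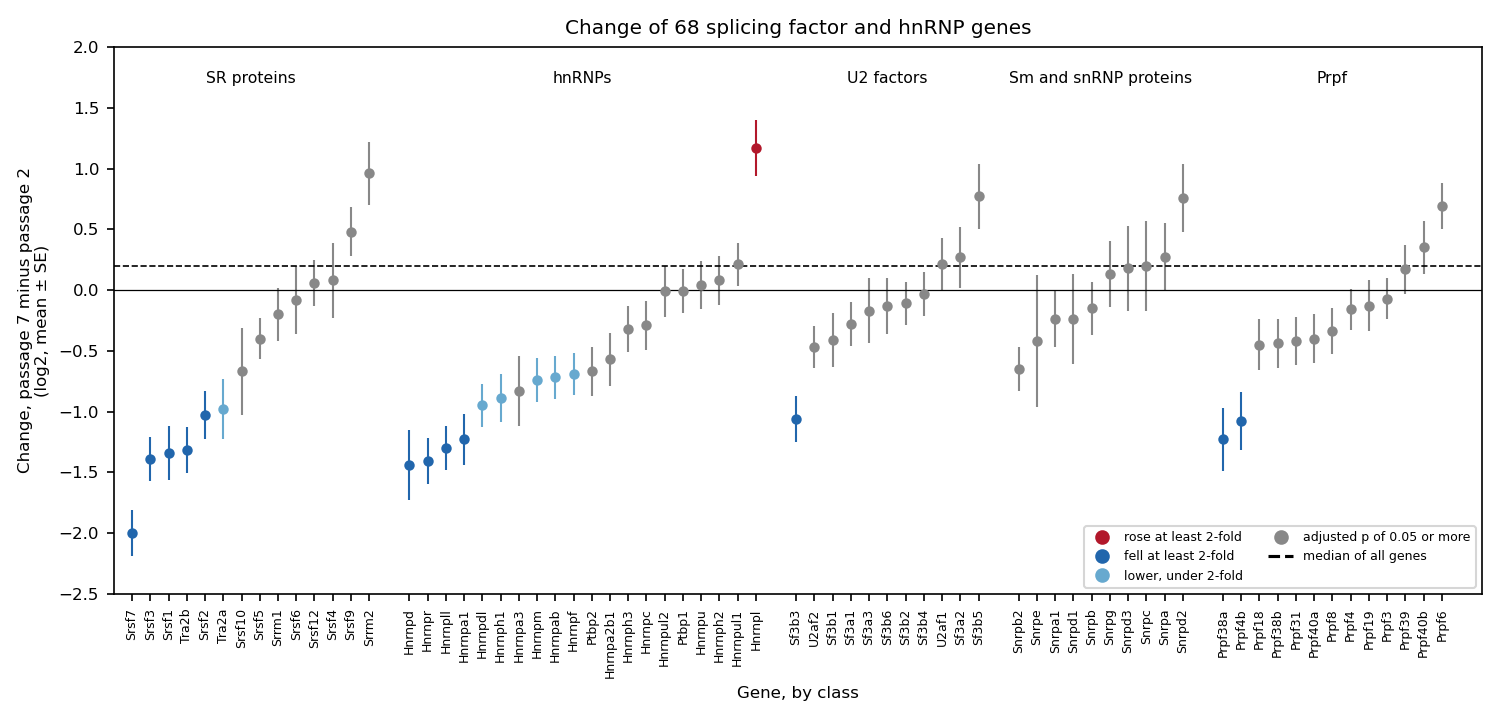
Change of each of the 68 genes from passage 2 to passage 7 (log2, passage 7 minus passage 2, with the SE of the limma fit, 2 arrays per passage), grouped by class and ordered by size. Colours give the call, and the dashed line is the median of all genes, 0.20. The SR proteins and hnRNPs reach furthest down, to -2.00 for Srsf7, while the 10 Snrp genes lie between -0.65 and 0.76.

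Among the 14 SR proteins, 5 fell at least 2-fold, beside 9.42% of all genes, and the class had a median change of -0.53. Srsf7, a small SR protein that also acts in polyadenylation and RNA export, had levels of -0.30 and -0.53 at passage 7, against 1.65 and 1.51 at passage 2. The passages lay far apart, with both passage 7 arrays the lowest. This was a 3.99-fold fall (log2 change -2.00 ± 0.19, SE; adjusted p = 0.0071 in limma across all genes), and its adjusted p ranged from 0.019 to 0.036 with 1 array left out. Its other 2 probes changed by -2.01 and -1.94.

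Srsf3, the smallest of the classical SR proteins and a known regulator of Srsf7 and other family members, had levels of -1.90 and -2.09 at passage 7, against -0.61 and -0.61 at passage 2. It was 2.61-fold lower (-1.39 ± 0.18, adjusted p = 0.012). Its other probes changed by -1.37 and -1.54. Its change differed with the background correction. It was -0.41 under normexp with 75th percentile scaling, -0.85 (adjusted p = 0.012) under normexp with quantile normalisation, and -0.95 (adjusted p = 0.061) under normexp with marked backgrounds replaced, an alternative added after the data were seen. Its change lay between -1.48 and -1.29 and its adjusted p from 0.035 to 0.087 when 1 array was dropped, and it failed without either passage 7 array (0.051 and 0.087).

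Srsf1, the founding SR protein, which promotes the use of weak splice sites, had levels of 0.26 and 0.06 at passage 7, against 1.31 and 1.69 at passage 2. The fall was 2.53-fold (-1.34 ± 0.22, adjusted p = 0.019). Tra2b, a splicing activator that binds purine-rich exon sequences, stood at 1.25 and 1.03, against 2.42 and 2.50, which was 2.50-fold lower (-1.32 ± 0.19, adjusted p = 0.014). Both genes separated the passages on every array. Srsf2, which binds exonic enhancers and also acts in transcription elongation, had levels of 2.01 and 1.94, against 2.87 and 3.15, and was 2.04-fold lower (-1.03 ± 0.20, adjusted p = 0.026). The changes of these 3 genes with 1 array left out ranged from -1.53 to -1.15, from -1.43 to -1.21 and from -1.17 to -0.89, and each passed only without the passage 2 replicate 1 array (adjusted p = 0.033, 0.037 and 0.037). Srsf2 fell short of 2-fold with the mean of all probes (-0.99) and did not pass with marked backgrounds replaced (-0.90, adjusted p = 0.10).

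Tra2a, the close relative of Tra2b, was 1.98-fold lower (-0.98 ± 0.25, adjusted p = 0.048), with levels of -0.39 and -0.86 at passage 7 and 0.49 and 0.23 at passage 2. It passed in none of the fits that left out 1 array, nor with the mean of all probes (adjusted p = 0.065). The remaining SR proteins did not pass. Srsf10, a repressor of splicing when dephosphorylated, changed by -0.67 ± 0.36, and Srsf5, an activator, by -0.40 ± 0.17. Srsf4 (0.08), Srsf6 (-0.08) and Srsf12 (0.06) had changes close to 0, with passage 7 levels inside or overlapping the passage 2 range. Srsf9 was at 4.79 and 5.11 at passage 7, against 4.47 and 4.48 (0.48 ± 0.20, adjusted p = 0.14). The nuclear matrix coactivators of splicing had values of opposite sign. Srrm2 had a change of 0.96 ± 0.26 (adjusted p = 0.06) and Srrm1 one of -0.20 ± 0.22 (adjusted p = 0.52). Srrm2 levels were 3.67 and 3.83, against 2.49 and 3.09, without overlap, and the gene crossed both thresholds once passage 2 replicate 2 was dropped (1.26, adjusted p = 0.048).

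Of the 20 hnRNPs, 9 passed as lower, 4 of them by at least 2-fold, and 1 rose. Over all genes, 11.9% passed as lower, 9.42% fell at least 2-fold and 9.99% rose. The class median was -0.68. Hnrnpd, also called AUF1, which binds AU-rich elements and controls the decay of unstable messenger RNAs, had levels of -4.79 and -4.17 at passage 7, against -3.21 and -2.87 at passage 2. It was 2.71-fold lower (-1.44 ± 0.29, adjusted p = 0.029), and its 5 probes changed by -1.44 to -1.28. These are dim probes, and the change of the representative one depended on the background correction. It was 0.56 under normexp with 75th percentile scaling, where no gene of the array passed, -0.76 (adjusted p = 0.016) under normexp with quantile normalisation, and -0.44 (adjusted p = 0.40) with marked backgrounds replaced. The 2-fold call was lost in all 3. Dropping 1 array put its change between -1.75 and -1.13, and it passed only without the passage 7 replicate 2 array (adjusted p = 0.046).

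Hnrnpr, which shares its domain layout with Syncrip (hnRNP Q), had levels of 2.25 and 2.16 at passage 7, against 3.52 and 3.72 at passage 2. The fall was 2.67-fold (-1.41 ± 0.19, adjusted p = 0.012), with -1.47 and -1.40 at its other probes. Hnrnpa1, an abundant shuttling hnRNP and a splicing repressor, stood at 3.34 and 3.19, against 4.33 and 4.67, and was 2.35-fold lower (-1.23 ± 0.21, adjusted p = 0.021). Its other probes changed by -1.21 and -1.38. Signal from its processed pseudogenes and close relatives may be included. Leaving out 1 array moved the change of Hnrnpr between -1.52 and -1.31 and that of Hnrnpa1 between -1.40 and -1.06. Hnrnpa1 did not pass with marked backgrounds replaced (adjusted p = 0.058). Neither passed without passage 7 replicate 1 (adjusted p = 0.055 and 0.077) or replicate 2 (0.079 and 0.13), and Hnrnpa1 also did not without passage 2 replicate 2 (0.057).

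Hnrnpl and its relative Hnrnpll, both of which bind CA-rich RNA, had changes of opposite sign. Hnrnpl had levels of 5.78 and 5.94 at passage 7, against 4.47 and 4.90 at passage 2. It rose 2.26-fold (1.17 ± 0.23, adjusted p = 0.027). Its other probes changed by 0.69 and 0.62, with passage 7 values of 3.52 and 3.62 against 2.24 and 3.53, and of 2.83 and 2.99 against 1.53 and 3.05, so the passages overlapped there. The gene's change under quantile normalisation was 0.59, and the authors' deposited value table gave 0.63, both short of the call. Dropping 1 array put its change between 0.96 and 1.39, and it passed only without the passage 2 replicate 2 array (adjusted p = 0.045). Hnrnpll, known for regulating Ptprc (CD45) exons in T cells, had levels of 0.78 and 0.64, against 2.07 and 1.95, a 2.46-fold fall (-1.30 ± 0.18, adjusted p = 0.014). Its other probes changed by -1.11 and -1.52. It did not pass without passage 7 replicate 1 (adjusted p = 0.063) or replicate 2 (0.10). The difference between these relatives was not tested.

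Another 5 hnRNPs passed as lower by less than 2-fold. Hnrnpdl, the relative of Hnrnpd, had levels of 1.54 and 1.38 at passage 7, against 2.42 and 2.41 (-0.95 ± 0.18, adjusted p = 0.025). Hnrnph1, which binds G-rich runs, changed by -0.89 ± 0.20, Hnrnpm by -0.74 ± 0.18, Hnrnpab by -0.72 ± 0.18 and Hnrnpf by -0.69 ± 0.17 (adjusted p = 0.039, 0.043, 0.045 and 0.048). In each of these 5 the groups did not overlap, so their kept signs with 1 array left out follow from that and are not further evidence. None of these 5 passed in any fit that left out 1 array. Hnrnpab and Hnrnpf did not pass with the mean of all probes either (-0.58 and -0.55, adjusted p = 0.087 and 0.12). Hnrnph2, the X-linked relative of Hnrnph1, changed by 0.08 ± 0.20, with 4.03 and 4.12 at passage 7 and 3.86 and 4.13 at passage 2.

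The other hnRNPs did not pass in the main setting. Hnrnpa2b1, which sorts RNAs for transport, had levels of 3.59 and 3.59 at passage 7, against 3.95 and 4.38 (-0.57 ± 0.22, adjusted p = 0.13). It was lower at -0.95 (adjusted p = 0.011) in the authors' deposited value table and at -1.08 (adjusted p = 0.019) under normexp with quantile normalisation. Hnrnpa3 changed by -0.83 ± 0.29 (adjusted p = 0.098). Hnrnpc, which binds uridine-rich introns, changed by -0.29, Hnrnph3 by -0.32, Hnrnpu by 0.04, Hnrnpul1 by 0.21 and Hnrnpul2 by -0.01. Ptbp1, the polypyrimidine tract repressor of many alternative exons, had 3.61 and 3.54 at passage 7 and 3.65 and 3.52 at passage 2 (-0.01 ± 0.18, adjusted p = 0.98). The passage 7 values of Ptbp1 lay within the passage 2 range. Ptbp2, its neuronal counterpart, stood at 0.12 and 0.05, against 0.59 and 0.92 (-0.67 ± 0.20, adjusted p = 0.074), and was lower in the authors' deposited value table (-0.94, adjusted p = 0.0096).

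**Figure D2:**
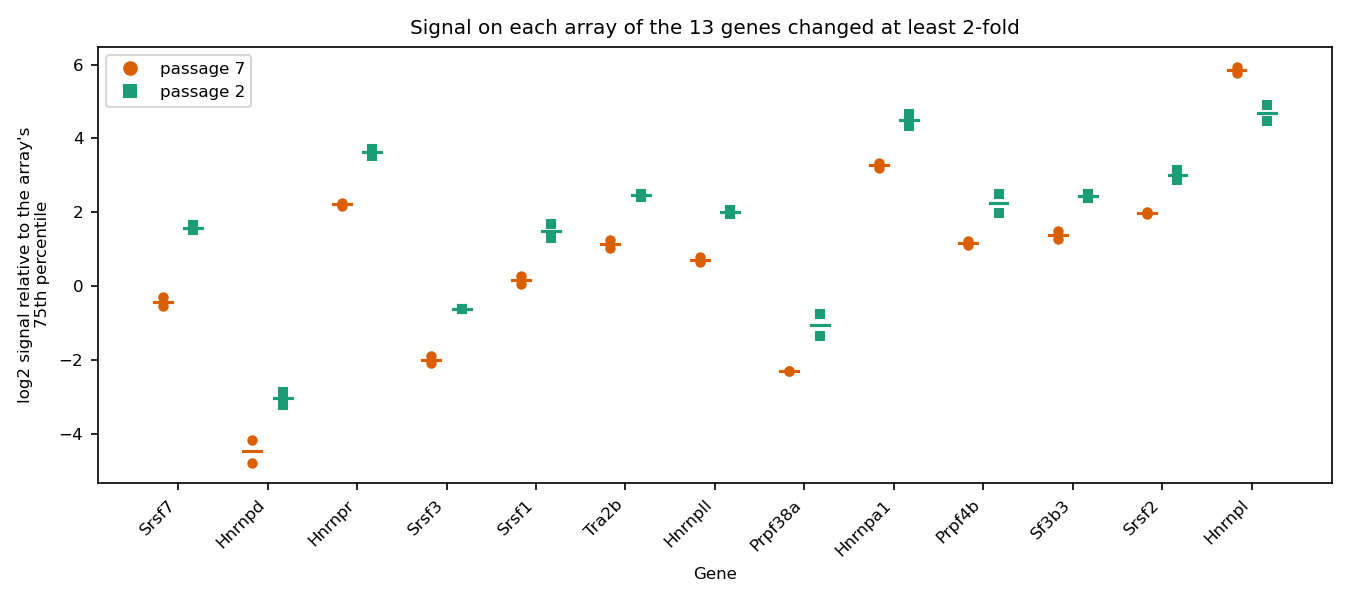
Level of each of the 13 genes that changed at least 2-fold on each array (log2 signal relative to the array's 75th percentile), with passage 7 as circles, passage 2 as squares and short bars for the means of 2 arrays. Levels are comparable within a gene and not between genes. In the 12 genes that fell both passage 7 arrays lie below both passage 2 arrays, and in Hnrnpl both lie above. The genes were picked by their change on these same arrays, so this separation is not further evidence.

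Among the 11 U2 factors, Sf3b3 alone passed, where 11.9% of all genes were lower and 13.4% higher by adjusted p. It encodes a scaffold subunit of SF3B and had levels of 1.28 and 1.48 at passage 7, against 2.38 and 2.49 at passage 2 (2.08-fold lower, -1.06 ± 0.19, adjusted p = 0.022). Its other probes changed by -0.89 and -1.11, and it passed only without the passage 2 replicate 1 array when 1 array was left out (adjusted p = 0.043). It did not pass with marked backgrounds replaced (-0.94, adjusted p = 0.065). Sf3b1, the SF3B subunit that holds the branch site, changed by -0.41 ± 0.22 (adjusted p = 0.23), with -0.59 and -0.35 against -0.23 and 0.12. U2af2, the large U2AF subunit, changed by -0.47 ± 0.17 (adjusted p = 0.11) and U2af1, the small one, by 0.21 ± 0.22 (adjusted p = 0.52). U2af1 was below 0 with quantile normalisation (-0.35) and in the authors' deposited value table (-0.29), and U2af2 was 0.46 under normexp with 75th percentile scaling. Sf3b5, a small SF3B subunit, had the highest change of the class (0.77 ± 0.27, adjusted p = 0.10), with 4.74 and 4.69 against 4.26 and 3.62. Dropping passage 2 replicate 1 took it past both thresholds (1.09, adjusted p = 0.039). The other 6 had changes from -0.28 for Sf3a1 to 0.27 for Sf3a2.

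None of the 10 Snrp genes passed in limma (1 was lower and 1 higher at an unadjusted p under 0.05), and their median change was -0.01. These encode the Sm ring shared by spliceosomal snRNPs (Snrpb, the 3 Snrpd genes, Snrpe and Snrpg) and proteins specific to U1 (Snrpa and Snrpc) or U2 (Snrpa1 and Snrpb2). Snrpb2 had the lowest change (-0.65 ± 0.18, adjusted p = 0.058), with 0.40 and 0.28 at passage 7, against 1.01 and 0.98. It was under the adjusted p threshold, at less than 2-fold, with quantile normalisation (-0.70, adjusted p = 0.049) and in the authors' deposited value table (-0.92, adjusted p = 0.01). Snrpd2 had the highest change (0.76 ± 0.28, adjusted p = 0.11), with 5.29 and 5.50 against 4.96 and 4.30. Dropping the passage 2 replicate 1 array took it past the threshold (1.09, adjusted p = 0.045). Snrpb changed by -0.15 ± 0.22 (-0.77 and an adjusted p = 0.019 under normexp with quantile normalisation), Snrpa1 by -0.24 ± 0.23 and Snrpd1 by -0.24 ± 0.37. Snrpe, with 3.46 and 3.20 at passage 7, spread from 4.51 to 2.98 between the passage 2 arrays and had an SE of 0.54. In all 10 genes the passage 2 replicate 1 array was above the replicate 2 array, by a median of 0.66. The same held for 67 of 76 Rpl and Rps genes, nearly all of cytosolic ribosomal proteins (median 0.52), and for 8238 of all 13850 genes (median 0.11). What this gap between the passage 2 arrays contributes was not tested. At a median SE of 0.28 in this class, against 0.21 in the SR proteins, smaller changes were not detectable here.

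Of the 13 Prpf genes, 2 fell, beside 9.42% of all genes. Prpf38a, which the spliceosome needs for its activation, had levels of -2.29 and -2.30 at passage 7, against -1.35 and -0.77 (2.35-fold lower, -1.23 ± 0.26, adjusted p = 0.032). Prpf4b, a kinase of tri-snRNP proteins, had 1.22 and 1.11 against 1.99 and 2.49 (2.11-fold lower, -1.08 ± 0.24, adjusted p = 0.038). Both separated the passages, and both passed only without the passage 2 replicate 1 array when 1 array was left out (adjusted p = 0.031 and 0.034). Under normexp Prpf38a changed by -0.35 with 75th percentile scaling, -0.86 (adjusted p = 0.02) with quantile normalisation and -0.94 (adjusted p = 0.095) with marked backgrounds replaced. Prpf4b did not pass in the last of these (adjusted p = 0.091). Prpf8, the protein at the catalytic centre, changed by -0.34 ± 0.19 (adjusted p = 0.26) with 5.50 and 5.63 against 6.03 and 5.78, and its other probe by -0.89. Quantile normalisation gave it -0.93 (adjusted p = 0.022), and normexp with quantile normalisation -0.72 (adjusted p = 0.025). Prpf19, the ubiquitin ligase of the Prp19 complex, changed by -0.13 ± 0.21 (adjusted p = 0.67). Prpf6, which bridges the tri-snRNP, had the highest change of the class (0.69 ± 0.19, adjusted p = 0.063), with 4.47 and 4.37 against 3.86 and 3.60. The other 8 had changes from -0.45 for Prpf18 to 0.35 for Prpf40b.

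Further probes gave the same signs. The 18 genes that passed as lower had 41 other probes in 17 genes, and all 41 were lower at passage 7, by 0.36 to 2.01 on the log2 scale. Over all members, 110 of 114 other probes had the sign of the representative probe. Counted by probe, 133 of 182 were lower at passage 7, with a median of -0.38. The share over all probes of the array was not counted. By gene, 49 of 68 members had negative changes, beside 5458 of all 13850 genes. Probes of 1 gene were read on the same arrays and are not replicates.

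**Figure D3:**
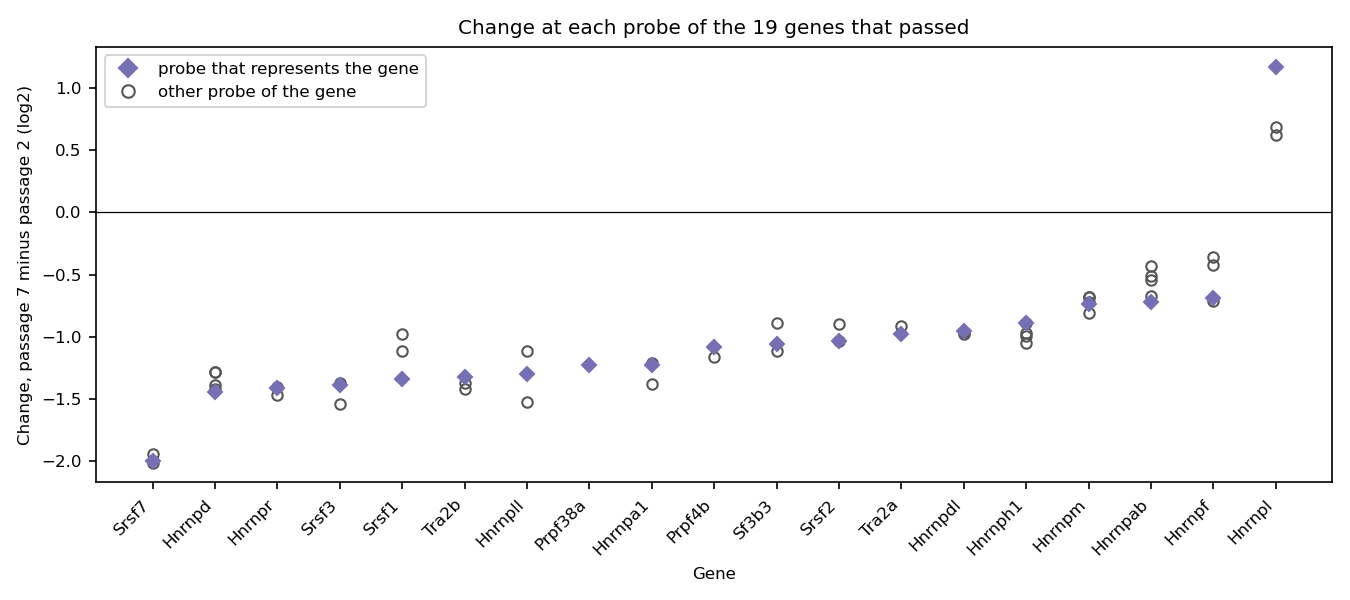
Change at each probe of the 19 genes that passed at an adjusted p under 0.05 (log2, passage 7 minus passage 2), with the representative probe as a diamond and the other probes as open circles. Every probe of the 18 lower genes lies below 0, and the 3 probes of Hnrnpl lie between 0.62 and 1.17.

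Other genes of RNA processing were counted in the same fit, in lists written with earlier results of these data known. Of 48 other spliceosome subunits tested, 1 fell and none rose by the 2-fold rule, beside 9.42% and 9.99% of all genes. The median of these subunits was -0.11 relative to all genes. The one that fell was Dhx15, the helicase that takes spent spliceosomes apart, with levels of 2.63 and 2.87 at passage 7, against 3.84 and 3.90 (-1.12 ± 0.19, adjusted p = 0.02). Of 49 other hnRNP-like and regulatory RNA-binding proteins, 10 were lower and 2 higher at an adjusted p under 0.05. Among all genes 11.9% were lower and 13.4% higher. Relative to all genes the median of these 49 was -0.44. Syncrip had levels of -0.55 and -0.36, against 1.43 and 1.56 (3.85-fold lower, -1.95 ± 0.19, adjusted p = 0.0071). Rbmx, the X-linked hnRNP G, had 0.68 and 0.63 against 1.75 and 2.21 (-1.32 ± 0.23, adjusted p = 0.021). The 2 that were higher were Esrp2, an epithelial splicing regulator, by 1.80 ± 0.18, and Elavl1, the RNA-stabilising protein HuR, by 0.75 ± 0.18 (adjusted p = 0.0079 and 0.042). Both were read at dim probes. Esrp2 had levels of -3.11 and -2.91 at passage 7, against -4.78 and -4.84, and Elavl1 -2.9 and -2.91, against -3.73 and -3.59. Single genes of these lists were not followed into the other settings.

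Among 8 kinases that phosphorylate SR proteins, Srpk3, known from muscle, alone passed, beside 13.4% of all genes higher by adjusted p. Its levels were -1.44 and -1.58 at passage 7, against -4.12 and -4.53 (7.04-fold higher, 2.82 ± 0.22, adjusted p = 0.0057). This probe was dim at passage 2, and its change under other background corrections was not examined here. Of 18 genes of snRNP assembly and import, 2 fell by the 2-fold rule, beside 9.42% of all genes. Gemin2, a subunit of the SMN complex, fell by 1.61 ± 0.18 on the log2 scale (adjusted p = 0.0092). Wdr77, the partner of the methyltransferase PRMT5, fell by 1.11 ± 0.19 (adjusted p = 0.021). Of 14 genes of cleavage and polyadenylation, 3 were lower by adjusted p alone, beside 11.9% of all genes. Relative to all genes, the median was -0.53 in this list, -0.34 for snRNP assembly and import and 0.04 for the kinases. The members had -0.49 on that scale. Cpsf6 fell by 1.65 ± 0.21 and Cstf2 by 1.29 ± 0.19 (adjusted p = 0.012 and 0.014). None of 14 genes of the exon junction complex and nonsense-mediated decay passed in limma (0 were lower and 4 higher at an unadjusted p under 0.05), and their median was 0.01 relative to all genes, with changes from -0.28 to 1.01.

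Medians of 3 other families, also taken by symbol, are given beside the members as a description, with no test of the difference. By adjusted p, 11.9% of all genes were lower and 13.4% higher. The 16 Nup genes of the nuclear pore tested had a median that was -1.09 relative to all genes, and 6 passed as lower and none as higher. The 37 Psma to Psmd genes had a median of 0.26 on the same scale. The 3 that were higher (Psmb1, Psmd4 and Psmd8) encode proteasome subunits, and the 1 that was lower, Psmc3ip, encodes a meiotic recombination factor that shares the symbol. The 76 Rpl and Rps genes had a median of 0.45, again relative to all genes. None was lower, and 3 were higher: Rpl37, the muscle-type Rpl3l, and Rps19bp1, which encodes a binding partner of a ribosomal protein. Within the members the medians relative to all genes were -0.88 for hnRNPs, -0.74 for SR proteins, -0.54 for Prpf genes, -0.33 for U2 factors and -0.21 for Snrp genes.

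**Figure D4:**
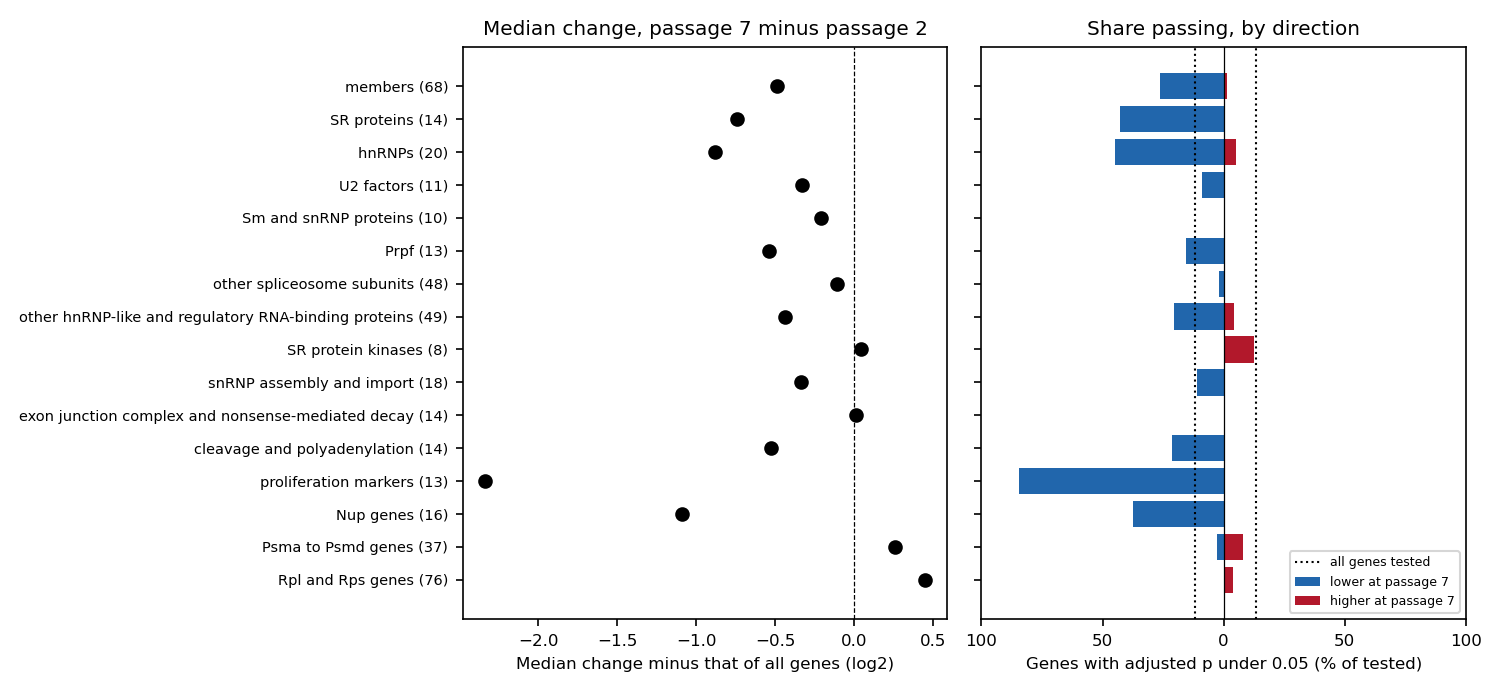
Left, the median change of each list relative to the median of all genes (log2, passage 7 minus passage 2), with the number of genes tested in brackets. Right, the share of tested genes lower (left of 0) or higher (right of 0) at an adjusted p under 0.05, with dotted lines at the shares among all genes, 11.9% and 13.4%. The members lie at -0.49, the hnRNPs at -0.88 and the Rpl and Rps genes at 0.45.

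RefSeq promoter windows were matched for 59 of the 68 members. They were searched on both strands for 5 motifs, with each motif counted separately where matches overlap. The ETS core CCGGAA was found in 29 of 59 members (49.2%), including Srsf7 and Hnrnpd above, and in 16.7% of the 27025 genes in the table, which also holds noncoding genes. It was present in 8 of the 11 matched members that fell 2-fold and in 19 of the 41 that did not pass. The CCAAT box (letters CCAAT, bound by NF-Y) was in 29 members (49.2%) and in 41.1% of all genes, with 1 match in Srsf3 and 4 in Hnrnpl. The E-box CACGTG, bound by MYC and USF proteins, was in 10 members (16.9%) and 8.1% of all genes, with 1 match in Hnrnpd. E2F sites spelled TTTCGCGC or else TTTGGCGC were in 2 members (3.4%) and 0.9% of all genes. The cell cycle element CHR, spelled TTTGAA, was in 7 members (11.9%) and 20.2% of all genes. In the 11 members that fell and the 41 that did not pass, the CCAAT box was found in 7 and 17. The E-box was in 1 and 7, E2F sites in 1 and 1, and CHR in 1 and 5. Both groups were called from these same data, and no difference in motifs was tested. All motif counts are matches of letters and not evidence of binding.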

How the data were processed

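Total RNA was labelled with Cy3 from 0.5 micrograms, per the labels' protocols, and read on a custom Agilent design of 43553 probes besides controls. Per the file headers, Feature Extraction 10.5.1.1 made the deposited spot files, which hold a background-subtracted processed intensity, median spot and background intensities, and flags. The authors' deposited value table holds log2 values (limma is named in the submitters' processing notes; the sources used here do not give the normalisation). Its columns had r from 0.9986 to 1.0 with log2 median intensity of their own array and medians of 6.24 and 6.14 at passage 7 and 6.30 and 6.30 at passage 2, so its scale and direction follow the signal, and its centring is unknown.

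From these files, log2 processed signal minus each array's 75th percentile over non-control spots was taken. Outlier spots (14 to 61 per array) were left out, no spot was saturated, and spots of 1 probe were averaged. Probes were named through RefSeq accessions (GRCm38.p6 table; 98.5% of 31562 such probes matched). The array was designed on another build. A gene was represented by its brightest probe over the 4 arrays and was kept where both arrays of either passage had it well above background. limma 3.58.1 in R 4.3.3 (lmFit, eBayes, 4 arrays, no covariate) gave two-sided p-values, adjusted by Benjamini-Hochberg over 13850 genes, and was tested on simulated data with known answers. The number of arrays limits precision. A robust SD between arrays, which gives little weight to genes with large gaps, was 0.192 at passage 7 and 0.334 at passage 2. Named members are those called, the extremes of each class and a set of 20 fixed by name, of which Hnrnpk was not matched. Other members were named after their values were seen. Members, lists and rules were chosen with earlier results of these data known. Alternatives covered background correction, scaling, filter, probe choice, variance model, replicate block and leaving out each array. The normexp correction used median intensities, because mean signals are not among the columns used here. Planned protein features were not analysed here.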

Additional observations from a re-analysis of the deposited data

How the results depend on the processing

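The median change of the members stayed between -0.62 and -0.38 relative to all genes in every setting but normexp with 75th percentile scaling, where it was -0.90. In that setting 0 members passed in either direction by either rule, and 0 of 13850 genes passed in limma. At an unadjusted p under 0.05 it gave 4 members lower and 0 higher, and 248 genes lower and 416 higher. Normexp with quantile normalisation gave 14 members lower by the 2-fold rule and 27 by adjusted p alone, and 548 genes rose and 718 fell. Normexp with 75th percentile scaling and the backgrounds of marked spots replaced, a setting added after the data were seen, gave 6 members lower by either rule and 0 higher, and 717 genes rose and 479 fell 2-fold, against 1384 and 1305. With no filter on dim probes 6 members were lower and 0 higher (897 and 874 of all genes). The 1 member that was higher became 0 with quantile normalisation, in the authors' deposited value table, with normexp and quantile normalisation, and with the mean of all probes. By adjusted p alone, limma with a variance trend gave 3 higher. With the replicate block, 1 member (Srsf7) was lower by either rule and 0 higher, and 522 genes rose and 651 fell. The labels do not say that a replicate number pairs the arrays, and the deviations of same-numbered arrays correlated at -0.168. Crossed numbers as a block, also added later, gave 12 lower and 1 higher by the 2-fold rule, and 15 and 2 by adjusted p alone. With 1 array left out, members lower ranged from 1 to 12 and members higher from 0 to 2 by either rule. Among all genes, rises then ranged from 474 to 1964 and falls from 613 to 1354. A lone array then takes its spread from the other passage.

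Signs changed in few named genes. Hnrnpd was 0.56 and U2af2 0.46 under normexp with 75th percentile scaling. U2af1 was -0.35 with quantile normalisation, -0.29 in the authors' deposited value table, -0.39 and -0.47 with normexp (without and with quantile normalisation) and 0.00 with the mean of all probes. Ptbp1 was 0.10 with marked backgrounds replaced. With 1 array left out, Snrpd1 ranged from -0.68 to 0.21, Snrpb ranged from -0.35 to 0.06, Prpf19 ranged from -0.27 to 0.01, Ptbp1 ranged from -0.07 to 0.06 and Srrm1 ranged from -0.40 to 0.00. The causes were not tested.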

Other observations

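Of 114 other probes, 7 differed from the representative probe of their gene by at least 0.5 on the log2 scale. One of the other probes of Hnrnpu, an abundant nuclear scaffold protein, changed by -1.13, and the representative probe by 0.04. For Srsf10 the values, in the same order, were -1.46 and -0.67, for Srrm1 -0.98 and -0.20, for U2af1 -0.45 and 0.21, and for Prpf8 -0.89 and -0.34. For Snrpb2 they were -0.10 and -0.65, and for Hnrnpl 0.62 and 1.17. The transcripts or exons these probes read were not compared.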
